A study of Mus musculus with 12 samples.

Results

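The 9 genes examined steer T cells into tissues, namely the chemokine receptor genes *Ccr1*, *Ccr2*, *Ccr4*, *Ccr9*, *Cxcr4* and *Cxcr6* and the integrin chain genes *Itgae*, *Itgb7* and *Itga4*. They were chosen by symbol, with earlier results of these data known, from a table of 45777 genes in 12 RNA-seq libraries. All 9 of 9 were among the 23585 genes that could be tested, those detected in 3 or more libraries. The libraries were made from polyA RNA of CD4+ T cells taken from the spleen of wild type mice, labelled as Balb/c and 7 weeks old. Every culture, controls included, received 0.5 ug/ml of anti-CD3, an antibody that drives the T-cell receptor, for 3 days, so no group was left unstimulated. Whether all cells of a culture responded was not tested. The 4 groups of 3 libraries differed in what was added to the anti-CD3, namely nothing, *L. acidophilus*, FK506 (tacrolimus, which blocks calcineurin), or both agents, called the combination. For the RNA-seq cultures the sources used here give neither a dose of *L. acidophilus* or FK506 nor the number of animals behind the libraries, so p-values measure the spread between libraries, which may be technical. The study's methods name B6 mice as the source of the sequenced cells, which differs from the strain on the labels.

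Chemokine receptors are G protein-coupled receptors that sense gradients of chemokines and so set where a lymphocyte goes, while integrins are pairs of an alpha and a beta chain that hold the cell on vessel walls and in tissue. The alpha4 chain, encoded by *Itga4*, pairs with the beta7 chain, encoded by *Itgb7*, to bind MAdCAM-1 on gut venules, and with the beta1 chain to bind VCAM-1. The alphaE chain (CD103), encoded by *Itgae*, pairs only with beta7 and binds E-cadherin on epithelial cells. Retinoic acid is known to raise alpha4beta7 and CCR9 on T cells, and TGF-beta is known to raise CD103. Calcineurin, the target of FK506, activates the NFAT transcription factors after T-cell receptor signalling.

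Depth was high, with 45416397 to 64658165 counts in a library. The replicate 1 libraries were the deepest of each group, and none of them held under 63113961 counts, whereas no other library held over 54245588. *Cd3e*, a chain of the T-cell receptor complex, had a mean FPKM of 151 with anti-CD3 alone, and *Cd4* had 143, so the genes that define the labelled cells were present. Marker genes of other cells differed between groups and are given here as summed CPM over each list, because several members are also made by such cells. The 8 macrophage and monocyte markers summed to 3.84 to 6.64 (anti-CD3 alone), 5.74 to 11.4 (*L. acidophilus*), 8.69 to 25.4 (FK506) and 63.6 to 121 (combination). The defining markers *Csf1r*, *Fcgr1* and *Ms4a7* were at 0 counts in every anti-CD3 library, and 7 of the 8 markers rose in the combination. The 10 B-cell markers summed to 113 to 187 (anti-CD3 alone), 73.8 to 103 (*L. acidophilus*), 617 to 1157 (FK506) and 297 to 363 (combination). The 5 dendritic-cell markers tested summed to 8.24 to 9.78 (anti-CD3 alone), 7.46 to 10.9 (*L. acidophilus*), 6.84 to 17.3 (FK506) and 37.1 to 47.5 (combination), where 2 of the 5 rose.

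Of the 9 genes, 4 sit together on mouse chromosome 9. *Ccr9*, *Cxcr6*, *Ccr1* and *Ccr2* lie within 341.9 kb (chr9:123767211-124109140, GRCm38.p6), and *Ccr4* lies apart from them on the same chromosome (chr9:114490316-114505476). *Cxcr4* is on chromosome 1 (chr1:128588199-128592299), *Itga4* on chromosome 2 (chr2:79255426-79333114), *Itgae* on chromosome 11 (chr11:73090505-73147449) and *Itgb7* on chromosome 15 (chr15:102215994-102233405). The gene identifiers of all 9 matched RefSeq.

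The sequences shown here are the 250 bases before the start of 3 genes that rose with FK506 alone, so that a reader can see what precedes genes that moved with a calcineurin inhibitor. They are from RefSeq (GRCm38.p6) and read 5′ to 3′ on the gene's strand, with capitals marking GGAAA, the core of NFAT sites, or its reverse complement TTTCC. *Cxcr4* is on the minus strand (chr1:128592300-128592549), *Cxcr6* on the plus strand (chr9:123806227-123806476) and *Itga4* on the plus strand (chr2:79255176-79255425).
Cxcr4: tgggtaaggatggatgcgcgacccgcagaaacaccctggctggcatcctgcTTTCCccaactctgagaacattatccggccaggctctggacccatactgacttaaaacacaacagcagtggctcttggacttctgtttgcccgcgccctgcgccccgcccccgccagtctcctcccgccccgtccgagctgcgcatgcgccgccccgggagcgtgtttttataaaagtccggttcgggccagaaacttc
Cxcr6: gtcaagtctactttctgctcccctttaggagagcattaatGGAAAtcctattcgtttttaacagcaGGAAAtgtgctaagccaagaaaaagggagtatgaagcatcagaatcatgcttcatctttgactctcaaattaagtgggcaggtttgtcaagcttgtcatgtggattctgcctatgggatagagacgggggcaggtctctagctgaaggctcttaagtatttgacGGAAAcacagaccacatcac
Itga4: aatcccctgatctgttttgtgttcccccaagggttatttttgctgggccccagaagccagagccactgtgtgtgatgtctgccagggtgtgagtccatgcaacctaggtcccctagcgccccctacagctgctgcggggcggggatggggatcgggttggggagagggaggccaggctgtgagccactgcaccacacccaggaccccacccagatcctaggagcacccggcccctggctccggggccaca
The *Cxcr6* sequence held 3 matches, that of *Cxcr4* held 1 and that of *Itga4* held 0. The motif is common, as 55.6% of 32851 promoters had at least 1 match in these 250 bases. A match is only a description of letters, and its absence says nothing about the factor.

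Across the 4 groups the mean FPKM rose from anti-CD3 alone through *L. acidophilus* and FK506 to the combination for 7 of the 9 genes, and it also ended highest in the combination for *Ccr2*. Without *L. acidophilus* replicate 1 that order held for 2 genes, *Cxcr4* and *Cxcr6*, and the *L. acidophilus* mean fell below that of anti-CD3 for *Ccr1*, *Ccr9*, *Itgae*, *Itgb7* and *Itga4*, as it already was for *Ccr2*. *Ccr4* ran the other way and was lowest in the combination. In the combination *Itgb7* was the most abundant member per length, at an FPKM of 118 ± 48.0 (SD, n = 3), followed by *Cxcr4*, *Ccr4*, *Itga4*, *Itgae*, *Cxcr6*, *Ccr2*, *Ccr1* and *Ccr9*. With anti-CD3 alone the most abundant member was *Ccr4*, at an FPKM of 128 ± 32.4 (SD, n = 3), and *Ccr9* was the least abundant at 0.0239 ± 0.0164 (SD, n = 3).

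**Figure D1:**
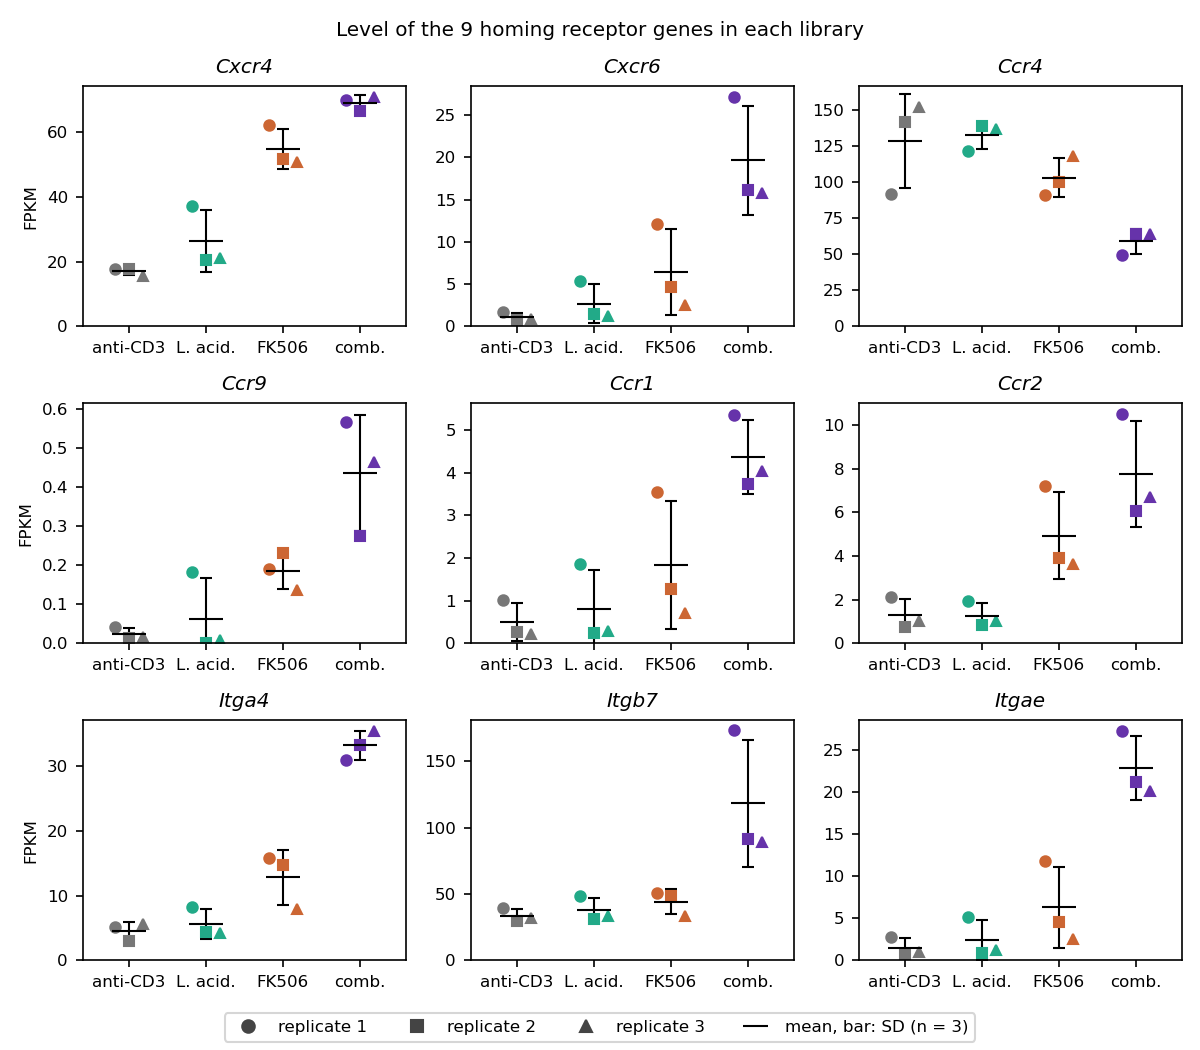
FPKM of the 9 genes (vertical axes, each from 0 on its own scale) in every library of the 4 groups (horizontal axis, with "comb." for the combination), where symbols mark the replicate number and the bar gives the mean and SD of 3 libraries. All libraries of the combination sit above all anti-CD3 libraries for 8 genes and below them for Ccr4, and replicate 1 is often the highest library of its group.

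Between the combination and anti-CD3 alone, 8 members were higher, 1 was lower and none failed the test (edgeR's quasi-likelihood test, Benjamini-Hochberg adjusted p under 0.05), in a comparison where 43.3% of all genes tested passed, 21.5% higher and 21.8% lower. The groups did not overlap for any of the 9 members, as for 50.9% of all genes. The members' median log2 fold change was 2.66, against 0.02 over all genes tested. As the members were chosen with earlier results of these data known, their counts and medians may reflect that choice and are descriptions. FK506 alone raised 4 members over anti-CD3 and lowered 0, in a comparison in which 19.0% of genes passed, 10.2% higher and 8.81% lower, and the members' median log2 fold change was 1.70. This count was 2 without anti-CD3 replicate 2 (14.1% of all genes passed there) and 2 without FK506 replicate 1 (13.2%). With replicates 2 and 3 alone 8 members passed (15.8%). *L. acidophilus* alone changed 0 members in edgeR's test, in which 0.229% of genes passed, and 1 member, *Cxcr4*, had an unadjusted p under 0.05. It also changed 0 members with DESeq2, which passed 4.71% of genes, and with limma on log2(FPKM + 1), which passed 0.365%. Comparisons against anti-CD3 alone share its 3 libraries, and those of the combination share its libraries too, so their values are set side by side and are not independent. As the RNA is from whole cultures, more cells that make a transcript and more transcript per cell cannot be told apart.

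Adding *L. acidophilus* to FK506 raised 2 members, *Itgb7* and *Itga4*, and lowered *Ccr4*, in a comparison in which 19.1% of genes passed edgeR's test, 8.18% higher and 10.9% lower. This count of 3 rested on the replicates and the tool, being 5 without FK506 replicate 1 (14.8% of all genes passed there), 7 with replicates 2 and 3 alone (18.6%), and 6 with limma on log2(FPKM + 1) (23.0%). Adding FK506 to *L. acidophilus* changed 8 of the 9 members, 7 higher and 1 lower, against 33.6% of all genes, 16.6% higher and 17.0% lower. The rises over *L. acidophilus* were 8.49-fold for *Itgae*, 6.71-fold for *Cxcr6*, 5.58-fold for *Ccr2*, 5.41-fold for *Itga4* and 2.41-fold for *Cxcr4* (adjusted p from 1.82e-04 for *Itga4* to 0.00669 for *Cxcr6*). Without *L. acidophilus* replicate 1 they were 18.8-fold for *Itgae* and 13.3-fold for *Cxcr6*. Between FK506 and *L. acidophilus*, 3 members were higher with FK506 (*Ccr2*, *Cxcr4* and *Itga4*), against 7.52% of genes, of which 4.80% higher and 2.72% lower. With the replicate number as a block 5 members passed, against 9.40% of genes. *Cxcr6* went from 1.21 on the log2 scale (adjusted p = 0.294) to 1.25 (0.0142), and *Itgae* from 1.31 (0.307) to 1.42 (0.0255). Unblocked, with a single library left out, *Cxcr6* went as low as 0.384, and its edgeR adjusted p as high as 0.810. *Itgae* likewise went as low as 0.503, and its adjusted p as high as 0.770. Both genes were farther apart and passed without *L. acidophilus* replicate 1 (adjusted p = 0.0467 for *Cxcr6* and 0.0446 for *Itgae*). The count of 3 was 7 with replicates 2 and 3 alone (9.40% of all genes), 6 without *L. acidophilus* replicate 1 (8.72%), 1 without *L. acidophilus* replicate 2 (3.53%), 0 without *L. acidophilus* replicate 3 (3.46%) and 1 without FK506 replicate 1 (4.83%), so the share of all genes moved in the same direction. The *Itga4* call (1.15, adjusted p = 0.0392) was also lost without FK506 replicate 2 (0.142), combination replicate 2 (0.0583) or combination replicate 3 (0.0570), with limma under each of 3 settings (0.0550 to 0.0623) and when only the libraries of both groups were fitted (0.0699).

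Whether the effect of *L. acidophilus* differed in the presence of FK506 was tested as an interaction, that is, how far the combination lay from adding up the separate log2 changes. No member passed (0 of 9 in edgeR's test, against 4.35% of all genes), while 3 had an unadjusted p under 0.05. These 3 were *Ccr4*, with an interaction of -0.87 on the log2 scale (SE 0.25; edgeR adjusted p = 0.0712), *Itgb7*, with 1.26 (SE 0.39; adjusted p = 0.0916), and *Itga4*, with 1.06 (SE 0.42; adjusted p = 0.188). Both *Ccr4* and *Itgb7* passed with the replicate number as a block, at -0.89 (adjusted p = 0.0154) and 1.21 (0.0156), against 6.69% of genes, and with DESeq2, at -0.83 (0.0211) and 1.30 (0.0114), against 10.1% of genes. Without anti-CD3 replicate 2 the interaction of *Ccr4* passed, at -0.98 (adjusted p = 0.0481). With replicates 2 and 3 alone *Itgae* was the member that passed, at 2.13 (adjusted p = 0.0345). With all libraries its interaction was 1.17 (SE 0.96; edgeR adjusted p = 0.567), and it passed in 1 of 22 alternatives.

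**Figure D2:**
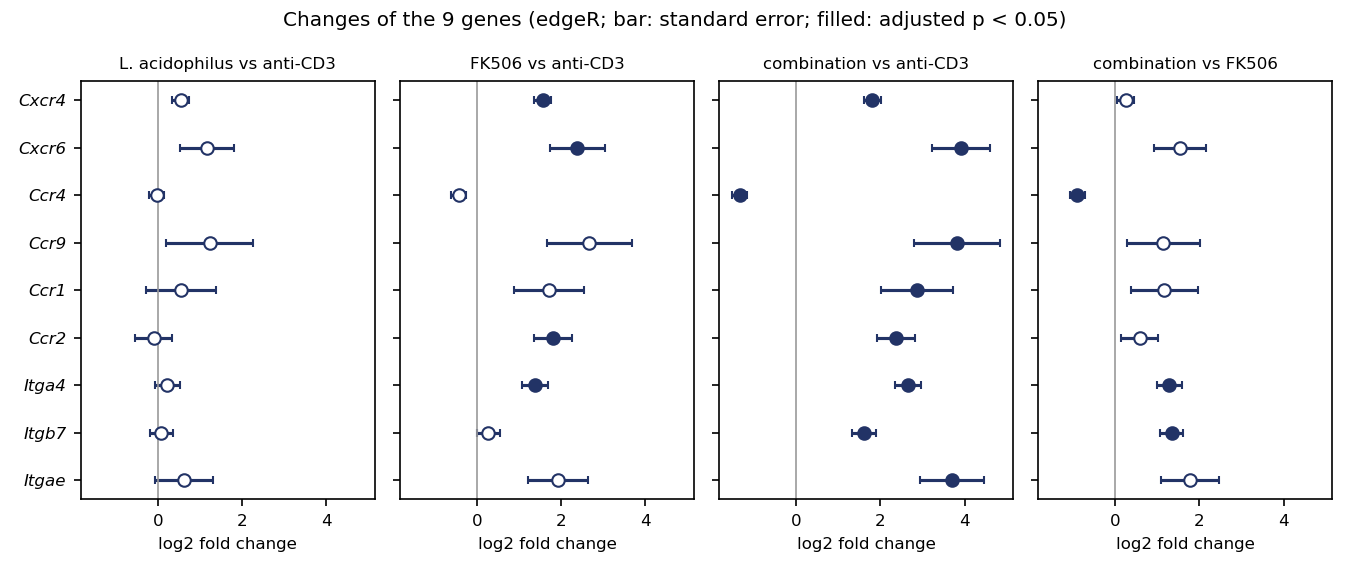
Log2 fold change of each of the 9 genes (horizontal axes, one panel per comparison) with its standard error as a bar, from edgeR on 12 libraries, with filled points for an adjusted p under 0.05. No point is filled for L. acidophilus, 4 are filled for FK506, all 9 for the combination against anti-CD3, and 3 for the combination against FK506.

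Among the chemokine receptors, *Cxcr4*, which binds CXCL12 and holds lymphocytes in bone marrow and lymphoid tissue, had the least scattered rise. Its FPKM was 17.8, 17.9 and 15.5 with anti-CD3 alone, 37.3, 20.6 and 21.1 with *L. acidophilus*, 62.0, 51.5 and 50.9 with FK506 and 70.0, 66.4 and 70.8 with the combination. The 4 groups did not overlap in any pair, although *L. acidophilus* replicate 1 stood well above the other two of its group. *Cxcr4* was 3.50-fold higher in the combination than under anti-CD3 alone (log2 fold change 1.81, SE 0.20; edgeR adjusted p = 4.32e-05) and 2.95-fold higher with FK506 (adjusted p = 5.24e-04). The step from FK506 to the combination was 0.25 on the log2 scale (SE 0.20; adjusted p = 0.426) and that from anti-CD3 to *L. acidophilus* was 0.54 (SE 0.20; adjusted p = 0.237), and neither passed. B cells also express *Cxcr4*, and the B-cell markers were likewise higher with FK506 and the combination, with 9 of 10 raised by FK506. They were highest with FK506 rather than with the combination, and their part in the *Cxcr4* result was not tested.

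*Cxcr6* encodes the receptor for CXCL16 and marks T cells that settle in liver and mucosa. Its FPKM was 1.71, 0.794 and 0.843 with anti-CD3 alone, 5.35, 1.43 and 1.28 with *L. acidophilus*, 12.2, 4.66 and 2.55 with FK506 and 27.1, 16.2 and 15.7 with the combination. Replicate 1 was the highest library of every group, and the combination lay above all other libraries, while FK506 and *L. acidophilus* overlapped. The rise in the combination was 15.1-fold over anti-CD3 alone (log2 fold change 3.92, SE 0.69; edgeR adjusted p = 7.67e-04). With FK506 alone it was 5.22-fold (log2 fold change 2.38, SE 0.65; adjusted p = 0.0252), but the call was lost without anti-CD3 replicate 2 (adjusted p = 0.0895), without anti-CD3 replicate 3 (0.0720) and without FK506 replicate 1 (2.94-fold, 0.116), and with limma on log2(FPKM + 1) (0.0547) or on quantile-normalized values (0.0595). The combination exceeded FK506 by 1.53 on the log2 scale (SE 0.62; adjusted p = 0.107), which did not pass with all libraries but did with replicates 2 and 3 alone, at 2.03 (adjusted p = 0.00429), and without FK506 replicate 1, at 2.36 (adjusted p = 0.0332). *Cxcl16*, the gene of its ligand, rose as well, from an FPKM of 0.524 ± 0.197 with anti-CD3 alone to 9.69 ± 1.36 with the combination (SD, n = 3; log2 fold change 4.05, adjusted p = 6.32e-05). The macrophage and monocyte markers also rose there, and their part in the *Cxcl16* result was not tested. *Cxcr6* lies on the strand opposite to *Fyco1*, inside its span, with 0 exonic bases shared.

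*Ccr4*, the receptor for CCL17 and CCL22 on Th2 cells, Treg cells and skin-homing T cells, was the only member that fell. Its FPKM was 91.3, 141 and 152 with anti-CD3 alone, 121, 139 and 137 with *L. acidophilus*, 91.0, 99.8 and 118 with FK506 and 49.1, 63.9 and 64.1 with the combination. The combination was below every other library, FK506 was below every *L. acidophilus* library, and anti-CD3 overlapped with both single agents. *Ccr4* was 2.52-fold lower in the combination than under anti-CD3 alone (log2 fold change -1.33, SE 0.18; edgeR adjusted p = 1.18e-04), 1.87-fold lower than with FK506 (log2 fold change -0.90, SE 0.18; adjusted p = 0.00478) and 2.47-fold lower than with *L. acidophilus* (adjusted p = 2.48e-04). FK506 alone gave -0.43 (SE 0.17; adjusted p = 0.108), which did not pass, although it did without anti-CD3 replicate 1, the lowest of its group, at -0.62 (adjusted p = 0.0152), and with replicates 2 and 3 alone, at -0.52 (adjusted p = 0.0278). In the opposite direction to *Ccr4*, the Treg markers *Foxp3*, *Ikzf2* and *Nrp1* rose in the combination, while *Il2ra* and *Tnfrsf18* fell and *Ctla4* did not pass, which makes 3 of 6 markers higher and 2 lower. Their part in the *Ccr4* result was not tested. The level of *Ccr4* stayed high in all groups, as even the lowest library held 9015 counts.

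*Ccr9*, the CCL25 receptor that directs T cells to small intestine and thymus, was close to the limit of detection. Its counts were 14, 4 and 5 with anti-CD3 alone, 58, 0 and 3 with *L. acidophilus*, 60, 54 and 34 with FK506 and 178, 63 and 113 with the combination, where 3 counts were taken as the floor that covers counting error. The *L. acidophilus* value rested on replicate 1, which held 58 counts, while the other two libraries were at or under the floor. As FPKM the combination reached 0.567, 0.275 and 0.464, above every other library. Its rise over anti-CD3 alone was 3.81 on the log2 scale (SE 1.02; edgeR adjusted p = 0.00984), or 4.44 without anti-CD3 replicate 1, and the FK506 value of 2.67 (SE 1.01; adjusted p = 0.0873) did not pass although FK506 and anti-CD3 libraries did not overlap. The step from FK506 to the combination, 1.14 (SE 0.87; adjusted p = 0.398), did not pass either. The FK506 value passed without *L. acidophilus* replicate 1 (adjusted p = 0.00665), without *L. acidophilus* replicate 2 (0.0337) and with replicates 2 and 3 alone (0.0154). Against *L. acidophilus* the combination gave 2.58 (SE 0.93; adjusted p = 0.0497), and 5.99 without replicate 1 of *L. acidophilus*, when only libraries at or under the floor were left in that group. The call was lost without either the second or the third *L. acidophilus* library (adjusted p = 0.0821 and 0.139). It was lost as well without any combination library (0.113, 0.0632 and 0.0963 for replicates 1, 2 and 3), without any FK506 library (0.0616, 0.0661 and 0.0588), and without anti-CD3 replicate 2 (0.0554) or 3 (0.0595). Of its 10260 exonic bases 1932 are shared with a gene model on the opposite strand, AC165425.1, and whether the counting used strand is not given in the sources used here.

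*Ccr1*, a receptor for CCL3 and CCL5, and *Ccr2*, the receptor for CCL2, belong to the inflammatory receptors, which monocytes carry as well as activated T cells. The FPKM of *Ccr1* was 1.03, 0.263 and 0.226 with anti-CD3 alone, 1.86, 0.235 and 0.292 with *L. acidophilus*, 3.55, 1.26 and 0.710 with FK506 and 5.36, 3.73 and 4.03 with the combination. That of *Ccr2* was 2.15, 0.741 and 1.01 with anti-CD3 alone, 1.95, 0.834 and 1.02 with *L. acidophilus*, 7.22, 3.90 and 3.65 with FK506 and 10.5, 6.05 and 6.69 with the combination. Replicate 1 was the highest library in every group for both genes, anti-CD3 and *L. acidophilus* overlapped, and only for *Ccr2* did FK506 lie wholly above them.

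In the combination *Ccr1* was 7.32-fold higher than with anti-CD3 alone (log2 fold change 2.87, SE 0.86; edgeR adjusted p = 0.0177) and *Ccr2* was 5.20-fold higher (log2 fold change 2.38, SE 0.45; adjusted p = 0.00130). Without anti-CD3 replicate 1 these were 15.5-fold for *Ccr1* (adjusted p = 0.00790) and 7.92-fold for *Ccr2* (adjusted p = 4.67e-04). The *Ccr1* call was lost without anti-CD3 replicate 2 (adjusted p = 0.0654) and without anti-CD3 replicate 3 (0.0606). FK506 alone raised *Ccr2* 3.48-fold (adjusted p = 0.0158), or 5.30-fold without anti-CD3 replicate 1, a call lost without anti-CD3 replicate 2 (0.0594) or FK506 replicate 1 (0.0640). For *Ccr1* it gave 1.70 on the log2 scale (SE 0.83; adjusted p = 0.178), which did not pass with all libraries but did with replicates 2 and 3 alone, at 1.89 (adjusted p = 0.00643). With each library left out in turn, this *Ccr1* value ranged from 0.82 to 2.78 and did not pass (edgeR adjusted p up to 0.568). Against *L. acidophilus*, the combination gave 2.32 for *Ccr1* (SE 0.83; adjusted p = 0.0501), just short of the threshold, and 2.94 with the replicate number as a block (adjusted p = 6.34e-04). From FK506 to the combination neither receptor passed, with 1.17 for *Ccr1* (SE 0.80; adjusted p = 0.344) and 0.58 for *Ccr2* (SE 0.43; adjusted p = 0.385), although both did with replicates 2 and 3 alone, at 1.86 (adjusted p = 0.00642) and 0.63 (adjusted p = 0.0355). The *Ccr1* value against *L. acidophilus* also passed without *L. acidophilus* replicate 1, at 3.91 (adjusted p = 0.00458), and without each of 4 others, namely anti-CD3 replicates 1 and 3 and FK506 replicates 1 and 3 (0.0324, 0.04996, 0.0404 and 0.0453).

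The macrophage and monocyte markers moved in the same direction as these receptors. *Lyz2*, the lysozyme gene of myeloid cells, had an FPKM of 0.0195 ± 0.0172 with anti-CD3 alone and 20.4 ± 8.98 with the combination (SD, n = 3), and *Cd68* went from 2.61 ± 0.700 to 26.5 ± 0.937. With FK506 alone 6 of the 8 markers rose, where 19.0% of all genes passed, 10.2% higher. With *L. acidophilus* alone 0 passed, where only 0.229% of all genes did, and the median log2 fold change of the markers was 1.87. Within each group replicate 1 held the highest summed level of these markers, as it did for *Ccr1* and *Ccr2*. Their part in the *Ccr1* and *Ccr2* results was not tested.

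**Figure D3:**
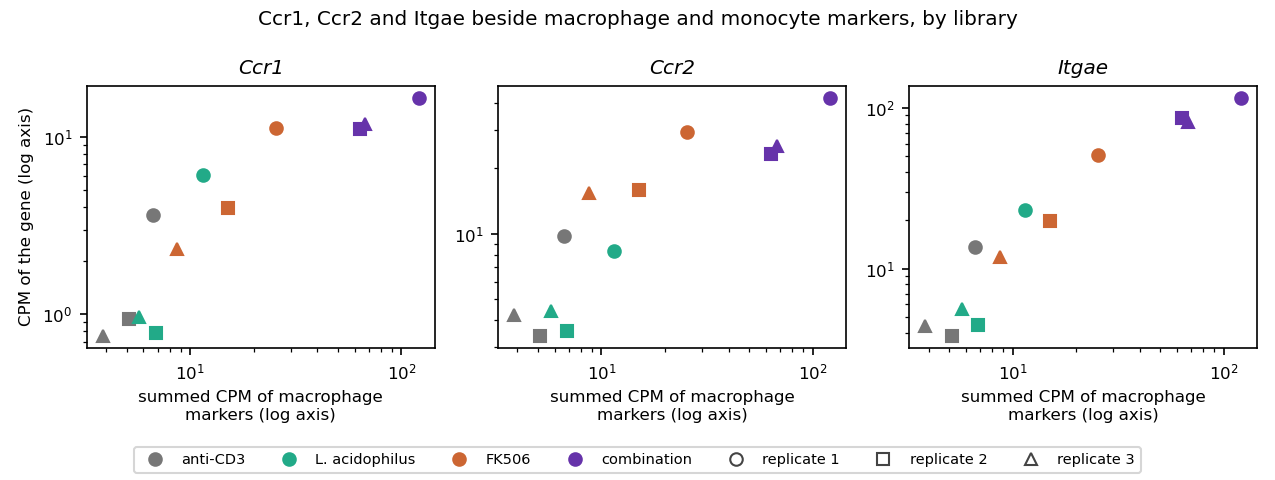
CPM of Ccr1, Ccr2 and Itgae (vertical, log axis) against the summed CPM of 8 macrophage and monocyte markers (horizontal, log axis), with 1 point per library, colours for groups and symbols for replicate numbers. The combination libraries lie at 63.6 to 121 on the horizontal axis and the anti-CD3 libraries at 3.84 to 6.64, and all 3 genes are highest in the combination's replicate 1.

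Among the integrin chains, *Itga4* rose with FK506 and was higher again in the combination. Its FPKM was 5.21, 2.98 and 5.57 with anti-CD3 alone, 8.26, 4.39 and 4.24 with *L. acidophilus*, 15.8, 14.8 and 7.99 with FK506 and 31.0, 33.3 and 35.5 with the combination. The combination libraries lay within a narrow band far above all others, whereas FK506 replicate 3 sat below *L. acidophilus* replicate 1. The combination was 6.32-fold above anti-CD3 alone (log2 fold change 2.66, SE 0.32; edgeR adjusted p = 5.83e-05) and FK506 was 2.59-fold above it (log2 fold change 1.37, SE 0.30; adjusted p = 0.00903). From FK506 to the combination *Itga4* rose 2.44-fold (log2 fold change 1.29, SE 0.30; adjusted p = 0.0122), a call lost without FK506 replicate 3 (adjusted p = 0.0517). *L. acidophilus* alone gave 0.22 (SE 0.30; adjusted p = 0.791). *Cerkl*, on the opposite strand, shares 1124 of the 13978 exonic bases of *Itga4*, and it held at most 114 counts in a library.

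*Itgb7*, the partner of both alpha chains, passed the test in the 3 comparisons of the combination with another group and in neither comparison of a single agent with anti-CD3. Its FPKM was 39.7, 29.5 and 31.8 with anti-CD3 alone, 48.2, 31.5 and 33.4 with *L. acidophilus*, 51.1, 48.1 and 33.6 with FK506 and 174, 91.6 and 89.3 with the combination. The first 3 groups overlapped with one another, and every combination library was above them, replicate 1 by the widest margin. *Itgb7* was 3.06-fold higher in the combination than under anti-CD3 alone (log2 fold change 1.62, SE 0.28; edgeR adjusted p = 6.67e-04), 2.54-fold higher than with FK506 (adjusted p = 0.00646) and 2.90-fold higher than with *L. acidophilus* (adjusted p = 0.00142). FK506 alone gave 0.27 on the log2 scale (SE 0.27; adjusted p = 0.532) and *L. acidophilus* alone 0.08 (SE 0.27; adjusted p = 0.947). The test of the difference itself, the interaction given above, did not pass for *Itgb7* over all genes (adjusted p = 0.0916), but it did with the replicate number as a block (0.0156) and with DESeq2 (0.0114).

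*Itgae*, which encodes the CD103 chain of intraepithelial and resident T cells and of some Treg and dendritic cells, rose by 13.0-fold in the combination over anti-CD3 alone (log2 fold change 3.70, SE 0.75; edgeR adjusted p = 0.00192), and by 23.0-fold without anti-CD3 replicate 1 (adjusted p = 0.00159). Its FPKM was 2.78, 0.720 and 0.975 with anti-CD3 alone, 5.17, 0.883 and 1.22 with *L. acidophilus*, 11.8, 4.55 and 2.59 with FK506 and 27.2, 21.2 and 20.1 with the combination. The combination stood clear of all other libraries, while the other 3 groups overlapped, and replicate 1 was the highest library of each group. FK506 alone gave 1.92 on the log2 scale (SE 0.70; adjusted p = 0.0790), which passed without anti-CD3 replicate 1 (2.74, adjusted p = 0.0340), without FK506 replicate 3 (2.33, adjusted p = 0.0463), without *L. acidophilus* replicate 1 (1.92, adjusted p = 0.0338) and with replicates 2 and 3 alone (1.94, adjusted p = 0.00326). With each library left out in turn, the FK506 value of *Itgae* went as low as 1.12, and its edgeR adjusted p as high as 0.314. From FK506 to the combination it gave 1.78 (SE 0.69; adjusted p = 0.0941), which passed without FK506 replicate 1 (2.58, adjusted p = 0.0435), without *L. acidophilus* replicate 1 (1.78, adjusted p = 0.0420) and with replicates 2 and 3 alone (2.42, adjusted p = 0.00325). The sign of the *L. acidophilus* value, 0.61 (SE 0.69; adjusted p = 0.732), was set by replicate 1, as it was -0.54 without that library. The dendritic-cell markers *Flt3* (log2 fold change 4.47) and *Zbtb46* (1.52) were the 2 of 5 tested that rose in the combination. *Xcr1* gave 3.81 (adjusted p = 0.0534), and the other two, *Siglech* and *Clec10a*, held at most 8 counts in any library. The Treg markers *Foxp3* (log2 fold change 4.11), *Ikzf2* (4.62) and *Nrp1* (2.87) also rose in the combination. *Il2ra* (-1.17) and *Tnfrsf18* (-0.81) fell, and *Ctla4* (0.77) did not pass. The part of Treg cells, dendritic cells and macrophages in the *Itgae* result was not tested.

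The genes whose pattern over the 12 libraries was most like that of the 3 members with the widest range, *Itgae*, *Cxcr6* and *Ccr1*, were sought among 12221 genes by Pearson's r of log2 CPM, as a description. For *Itgae* they were *Pear1* (r = 0.989), *Src* (r = 0.988), a tyrosine kinase gene, and *Cxcr6* itself (r = 0.987). *Cxcr6* was closest to *Ighv11-2* (r = 0.988), an immunoglobulin variable gene, to *Acpp* (r = 0.987) and to *Itgae*. *Ccr1* was closest to *Cd200r1* (r = 0.995), the receptor for CD200, to *Itgae* (r = 0.986) and to *Myadm* (r = 0.979). The points share 4 groups and the replicate numbers. Deviations of the members from the group means were also correlated, most strongly for *Ccr1* and *Itgae* (r = 0.993). Among pairs without *Ccr4* the lowest was 0.517 (*Itgb7* and *Itga4*). Pairs with *Ccr4* ran from -0.429 (*Cxcr4*) to -0.895 (*Ccr2*). On log2(FPKM + 1) only 4 of these 9 neighbours were found again.

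Of the 14 other chemokine receptor genes counted, 6 rose and 1 fell in the combination against anti-CD3 alone (median log2 fold change 1.42). FK506 raised 4 and lowered 1, where 19.0% of all genes passed, 10.2% higher and 8.81% lower. Over all genes 43.3% passed in the comparison of the combination with anti-CD3, and the same share stands against each list below. The lists, like the members, were chosen with earlier results of these data known. *Ccr6*, the CCL20 receptor of Th17 and Treg cells, went from an FPKM of 0.187 ± 0.209 to 13.3 ± 1.41 (SD, n = 3), or 5.81 as a log2 fold change (SE 0.79; edgeR adjusted p = 1.39e-04). *Cxcr3*, the Th1 receptor for CXCL9 and CXCL10, rose by 2.17 on the log2 scale (adjusted p = 5.90e-06). *Cxcr5*, the receptor of follicular T cells and B cells, rose by 1.01 (adjusted p = 0.00484), and *Ccr7*, the lymph node homing receptor, gave 0.92 (SE 0.37; adjusted p = 0.0629). The receptor that fell, named after its values were seen, was *Ccr8*, another receptor of Th2 and Treg cells, at -0.89 (adjusted p = 0.00724).

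Of the 21 other integrin chain genes tested, 6 rose and 5 fell in the combination (median log2 fold change 0.41), which is near the 21.5% higher and 21.8% lower over all genes and is no result about integrins as a group. *Itgb8*, whose product forms the TGF-beta-activating integrin alphavbeta8, rose by 3.41 on the log2 scale (SE 0.50; edgeR adjusted p = 2.17e-04) and *Itga6*, a laminin receptor chain, by 1.37 (adjusted p = 2.34e-04). *Itgb1*, the other partner of the alpha4 chain, rose by 0.92 (adjusted p = 0.00351). *Itga7* fell, with a log2 fold change of -2.99 (adjusted p = 0.00298), from 7.16 ± 5.87 to 1.01 ± 0.308 FPKM.

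**Figure D4:**
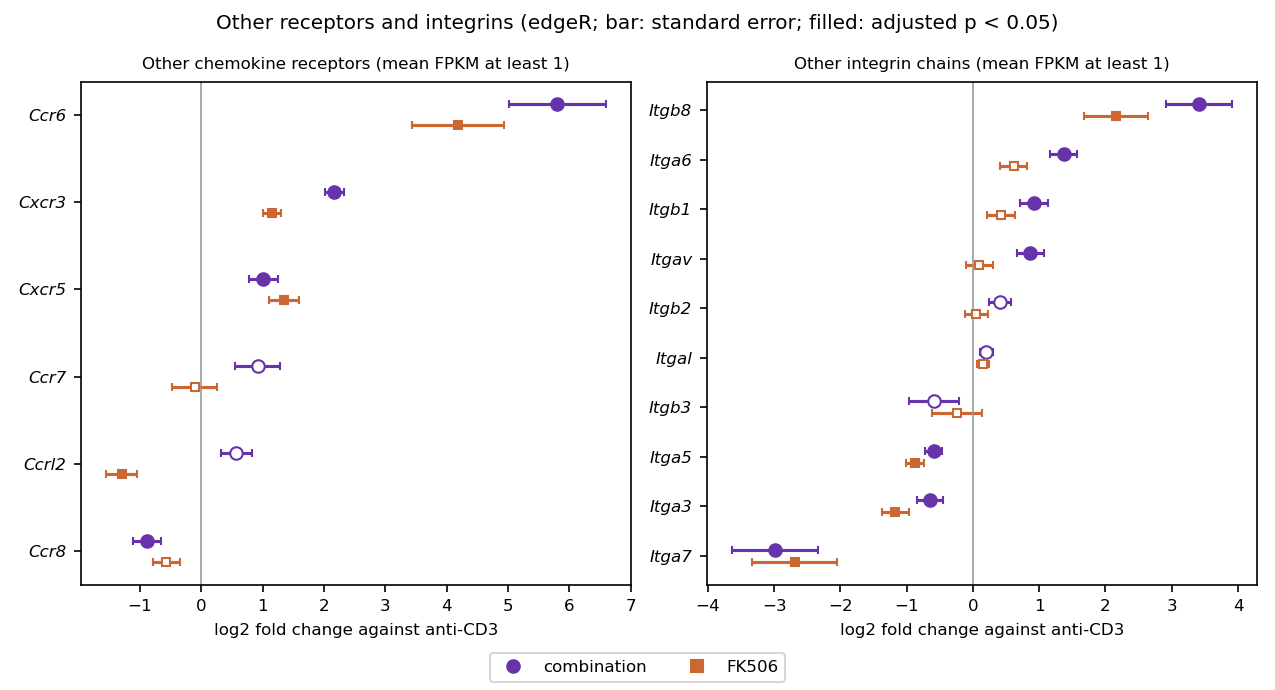
Log2 fold change against anti-CD3 alone (horizontal axes) of the other chemokine receptor genes (left) and other integrin chain genes (right) with a mean FPKM of at least 1, for the combination (circles) and FK506 (squares), with standard errors as bars and filled symbols for an edgeR adjusted p under 0.05. Ccr6 at 5.81 and Itgb8 at 3.41 are the farthest to the right in the combination, and Ccr8 and Itga7 the farthest to the left.

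Of the 13 ligand genes of the members tested, 5 rose in the combination and 1 fell. The most abundant by mean FPKM over all libraries was *Ccl22*, a ligand gene of CCR4, which did not pass (log2 fold change 0.11, adjusted p = 0.844) and had an FPKM of 79.2 ± 43.1 with anti-CD3 alone and 98.2 ± 24.1 with the combination (SD, n = 3). In the *L. acidophilus* group *Ccl3* was higher, at a mean FPKM of 123 against 55.0 for *Ccl22*. Besides *Cxcl16*, *Ccl2*, the CCR2 ligand gene of monocytes and stromal cells, was at 0 counts in every anti-CD3 library and at 98 to 373 counts in the combination (edgeR adjusted p = 0.00136). *Ccl3*, a ligand gene of CCR1, was the member of this list that fell, by a log2 fold change of -1.04 (adjusted p = 0.0243), and *Ccl17*, the other CCR4 ligand gene, gave 1.15 (adjusted p = 0.253). Below a mean FPKM of 1, *Vcam1*, the gene of the alpha4beta1 ligand, rose by 5.75 on the log2 scale (adjusted p = 1.82e-05), from 4 to 9 counts in the anti-CD3 libraries to 351 to 551 in the combination. *Ccl7*, a further CCR2 ligand gene, rose from 0 to 2 counts to 62 to 226 (adjusted p = 9.41e-04), and *Fn1*, the fibronectin gene, by 1.23 on the log2 scale (adjusted p = 0.00503). *Ccl25* and *Madcam1*, the ligand genes of CCR9 and alpha4beta7, did not pass, at -0.17 (adjusted p = 0.588) and -0.24 (0.762). *Cdh1*, that of CD103, did not pass either (adjusted p = 0.0505), with 0 counts in every anti-CD3 library and at most 12 in the combination. As the macrophage and monocyte markers also rose in the combination, which cells made these ligand transcripts was not tested.

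Of 16 tested genes of the retinoic acid and TGF-beta pathways, the signals known to set gut homing, 10 rose and 1 fell in the combination against anti-CD3 alone (median log2 fold change 0.89). The TGF-beta receptor gene *Tgfbr2* rose from an FPKM of 12.3 ± 2.23 to 43.1 ± 2.49 (SD, n = 3; log2 fold change 1.61, edgeR adjusted p = 9.42e-06). The feedback inhibitor genes *Smad7* and *Skil* rose by 1.55 (adjusted p = 1.06e-04) and 1.54 (adjusted p = 1.14e-05). *Crabp2*, which encodes a retinoic acid carrier, fell from 191 ± 64.9 to 15.2 ± 6.65 FPKM (log2 fold change -3.88, adjusted p = 2.98e-05).

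Of 7 genes of lymph node homing and egress, 5 rose and 0 fell in the combination (median log2 fold change 1.13). *Klf2*, a factor that drives *S1pr1*, rose by 4.43 on the log2 scale (SE 0.50; edgeR adjusted p = 4.48e-05) and *S1pr1*, the egress receptor, by 3.14 (adjusted p = 1.59e-04). *Klf3* rose by 1.30 (adjusted p = 4.10e-04), and so did *Cd69*, which opposes S1PR1 at the cell surface, by 1.13 (adjusted p = 5.81e-05).

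The other protein-coding genes of the chromosome 9 receptor cluster looked at were 5, from *Lztfl1* to *Ccr2*. In the combination 2 of these 5 rose and 0 fell, namely *Fyco1* by 0.89 on the log2 scale (edgeR adjusted p = 0.00453) and *Lztfl1* by 0.65 (adjusted p = 0.0121). Those 2 values were below the 2.38 to 3.92 of *Ccr2*, *Ccr1*, *Ccr9* and *Cxcr6* in the same cluster. The other 3 did not pass, with 3.81 for *Xcr1* (adjusted p = 0.0534), 1.07 for *Ccr1l1* (0.662) and 1.00 for *Ccr3* (0.407), and the highest FPKM mean of the 3 in any group was 0.300.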

How the data were processed

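The authors deposited 1 table of gene counts, FPKM and TPM values for 12 libraries, and no value column of it was left unmapped (0). The counts were deposited as whole numbers with no normalization. The authors scaled the FPKM values to gene length and library size, and the quantile normalization that the methods name was not visible in them. The TPM values, deposited by the authors in the same table, were not used. The submitters' processing notes name bcl2fastq 2.20.0, Trimmomatic, HISAT2 2.1.0, StringTie 2.1.3b and the builds mm10 and GRCm38, and whether counting used strand is not given in the sources used here. The instrument differs between the series record and the methods.

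Genes detected in at least 3 libraries entered a test of their counts with edgeR 4.0.16 in R 4.3.3 (quasi-likelihood F test, TMM factors, 1 mean for each of the 4 groups, all 12 libraries in 1 fit, Benjamini-Hochberg over 23585 genes, two-sided, threshold 0.05). Standard errors were obtained by dividing a log2 fold change by the root of its F statistic. CPM used TMM-scaled totals, with 0.5 added before the log2. Counting floors (3 counts) cover counting error only. No library pair of a group was alike to within sampling noise. By chi-square of the counts per degree of freedom, the closest pairs were replicates 2 and 3 of the combination (4.61) and of *L. acidophilus* (9.57). The other pairs within a group had 47.7 to 205. Tests on replicates 2 and 3 alone therefore hold libraries that are closer to each other in those groups. Alternatives used DESeq2 1.42.0 and limma 3.58.1 (pseudocounts 1 and 0.1), other factors and filters, a 2-fold threshold, left-out libraries, replicates 2 and 3 alone, and the replicate number as a block. Tests were tried on simulated data. Figures used matplotlib 3.10.9.

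The members and the gene lists were chosen with earlier results of these data known. The genes named are the 9 members, the 3 genes most alike to each of 3 members with the widest range, and up to 4 genes of each list with the largest change in the combination against anti-CD3 and a mean FPKM of at least 1. Other list genes named (defining markers at or near 0 counts, Treg markers, *Ccr8*, further ligand genes and neighbours) were chosen after their values were seen. Lists were other chemokine receptors, other integrin chains, ligands, retinoic acid and TGF-beta genes, lymph node homing genes, neighbours on chromosome 9, and markers of cell types. The neighbours were taken between *Lztfl1* and *Ccr2*, since the end point first planned lies outside the cluster. Genes taken out of 3 lists are not reported here and enter no list count, while the counts do cover listed genes that the text does not name. Marker lists for CD8 T cells, NK cells, neutrophils, and basophils and mast cells were also counted. In the combination against anti-CD3 0 of 2, 2 of 3, 0 of 2 and 0 of 3 of their tested genes rose.

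For replicate numbers, which the labels give, deviations from the group means of same-numbered libraries had a mean correlation of 0.222 over 18 pairs, and 13 pairs were over 0.1. All 3 pairs were over 0.1 between *L. acidophilus* and each other group but not between the remaining groups, so the blocked value stands beside the results of *L. acidophilus* where it changes a call. Locations and promoters are from RefSeq (GRCm38.p6), and overlaps of gene models from GENCODE. Promoters matched 8 of 9 members. For 3 of the 8 the start lay inside the gene's span, and they were not printed.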

Additional observations from a re-analysis of the deposited data

How the results depend on the processing

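With each library left out in turn, FK506 against anti-CD3 passed 2 to 6 members (10.7% to 20.3% of all genes), the combination against FK506 2 to 5 (10.0% to 23.6%), FK506 against *L. acidophilus* 0 to 6 (3.46% to 9.39%) and the interaction 0 to 1 (1.42% to 6.25%). The combination passed 8 to 9 members against anti-CD3 (36.6% to 43.8%) and 7 to 9 against *L. acidophilus* (25.5% to 37.8%). In *L. acidophilus* against anti-CD3 *Itgae* ranged from -0.54 to 1.44 on the log2 scale, *Itga4* from -0.16 to 0.39 and *Itgb7* from -0.13 to 0.24. Within the combination and within the *L. acidophilus* group, replicates 2 and 3 were much closer to each other than to replicate 1. With replicates 2 and 3 alone, 8 members passed in FK506 against anti-CD3 (15.8% of all genes), 7 in the combination against FK506 (18.6%), 7 in FK506 against *L. acidophilus* (9.40%) and 1 in the interaction (2.15%), and *Itga4* in *L. acidophilus* against anti-CD3 was -0.034. A replicate block gave 8, 7, 5 and 2 for these (20.7%, 22.1%, 9.40% and 6.69% of all genes). Not every library correlated best with its own number, and the pairing of libraries outside the *L. acidophilus* comparisons rests on the number only. Other tools gave, in the combination against FK506, 6 members with limma on log2(FPKM + 1) (23.0% of all genes), 5 with limma on quantile-normalized values (21.7%) and 5 when only the libraries of both groups were fitted (24.9%), and DESeq2 gave 2 in the interaction (10.1%). Of the genes most alike, 4 of 9 were found again on log2(FPKM + 1). The cause of these shifts was not tested. Over all 63 member changes and 23 alternatives, 1303 of 1440 values kept their direction and their side of the threshold, 67 passed only in the alternative, 35 no longer passed and 35 changed sign. The changes of sign were 20 in *L. acidophilus* against anti-CD3 and 15 in the interaction, and 4 of them concern values printed above. Leaving out TMM factors moved the median of all genes in the combination against anti-CD3 by 0.20 on the log2 scale, and the same 8 and 1 members passed there. By its counts *Ccr9* is the member nearest to the floor of 3.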
